A study of Mus musculus with 9 samples.

Results

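The nuclear genes for the subunits of the oxidative phosphorylation complexes were followed through 9 RNA-seq libraries of mouse gastrocnemius, a calf muscle made mostly of fast fibres. Members were the protein-coding genes whose symbols begin with Ndufa, Ndufb, Ndufc, Ndufs, Ndufv, Uqcr, Cox4 to Cox8 or Atp5, together with Sdha to Sdhd, and the Ndufaf assembly factors were left out. Described here are 85 gene identifiers, carrying 84 symbols because Atp5o has 2 identifiers, of 55401 in the tables. By complex there were 35 of complex I, 4 of complex II, 8 of complex III, 18 of complex IV and 17 of complex V (ATP synthase), and 3 associated proteins (Cox7a2l, Ndufa4l2 and Atp5s). Ndufa4 was placed in complex IV, where its protein is now assigned.

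All mice were wild-type and of the FVB strain, aged 2 to 3 months, and their gastrocnemius had received saline, AAV-GFP or AAV-GFP-MBNL1∆ 7 weeks before collection, with 3 libraries in each group. AAV is an adeno-associated virus used as a gene carrier, GFP is a fluorescent protein that serves as the control cargo, and MBNL1∆ is a shortened form of MBNL1, an RNA-binding protein of muscle that controls splicing. The series title presents it as a decoy for the CUG repeats that cause RNA toxicity in myotonic dystrophy. These animals were labelled wild-type, so the comparisons measure normal muscle with and without the vectors. The labels name no promoter for either vector, no dose, no sex and no pooling of animals. They do not say that the 3 libraries of a group are separate animals, so the p-values measure the spread between libraries, which may be technical.

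Libraries held 44603618 to 76970849 reads in genes. Muscle fibre markers were abundant in all of them, none of the 14 at 0, with a summed level of 160186 to 195794 CPM in saline, 94459 to 158007 in AAV-GFP and 173688 to 200369 in AAV-GFP-MBNL1∆ (CPM, counts scaled to library size). AAV-GFP 2 stood apart: its 10 most abundant genes took 17.7% of reads, against 23.6% to 27.7% in the other 8 libraries, and it held the highest levels of immune cell markers. The 6 macrophage markers summed to 78.4 to 99.4 CPM in saline, 184 to 1663 in AAV-GFP and 140 to 231 in AAV-GFP-MBNL1∆. The 8 T cell markers, of which Cd8a was at 0 in saline, summed to 0.863 to 1.22, 6.35 to 83.2 and 6.08 to 15.1 CPM, and the 6 B and plasma cell markers, of which Mzb1 was at 0 throughout, to 0.273 to 0.910, 2.86 to 903 and 30.9 to 95.1 CPM. Xist, transcribed from the inactive X chromosome of females, measured 0.0182 to 0.0902 CPM in AAV-GFP-MBNL1∆ and 105 to 136 CPM in the other 6 libraries, and Y-linked Ddx3y measured 82.7 to 84.6 CPM in AAV-GFP-MBNL1∆ and at most 2.58 CPM elsewhere. Sex and AAV-GFP-MBNL1∆ therefore cannot be told apart in either comparison that includes AAV-GFP-MBNL1∆.

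Oxidative phosphorylation takes place in the inner mitochondrial membrane. Complex I (NADH dehydrogenase) and complex II (succinate dehydrogenase, which is also an enzyme of the citrate cycle) pass electrons to coenzyme Q, complex III (cytochrome bc1) passes them to cytochrome c, and complex IV (cytochrome c oxidase) passes them to oxygen. The proton gradient built by complexes I, III and IV drives complex V, which makes ATP. All complexes but complex II combine subunits encoded in the nucleus with subunits encoded in mitochondrial DNA. Several nuclear subunits of complex IV come in pairs of genes, one used in most tissues and one in heart and skeletal muscle, and slow oxidative fibres carry more of the whole system than fast glycolytic ones.

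The members together took 1.53% to 1.87% of each library's reads in genes. Of the 85, 81 passed the filter on low counts and were tested among 18514 genes. Ndufa13 and Cox4i1, both subunits used by nearly every cell, were listed at 0 in all 9 libraries. Of their 50-base transcript stretches, 28.5% and 12.2% also occur in other genes, while Atp5g2, at 100%, had reads counted. The cause of the 0 values was not tested. Cox7b2 and Cox8c, known as testis isoforms, were near 0, and none of these genes passed the filter. Since reads that fit more than 1 place can be lost in counting, the shared sequence of each member was measured. Of 85 member transcripts, 32 had at least 10% and 7 had at least 50% of their 50-base stretches in transcripts of other genes, and 38 had none. Atp5g2 (100%), the second identifier of Atp5o (89.8%), Atp5l (84.8%), Atp5g1 (66.0%), Cox7c (53.0%) and Ndufs5 (41.2%) were among the most affected, so their levels are uncertain.

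In saline muscle the levels per kilobase of transcript ran from 0.769 CPM per kb for Cox6b2, a testis isoform, to 1203 CPM per kb for Atp5b, the catalytic beta subunit of ATP synthase, with a median of 154 over the 81. Complex I had the lowest median among the complexes, 131 CPM per kb over 34 genes, from Ndufs5 at 7.26 to Ndufb10 at 262. Ndufb5, a supernumerary subunit of its membrane arm, was at 271, 271 and 295 CPM in saline, 251, 207 and 299 in AAV-GFP and 266, 342 and 302 in AAV-GFP-MBNL1∆, with overlap between all groups. Complex II had a median of 193, from Sdhc at 84.5 to Sdhb at 354. The medians of complexes III, IV and V were 308, 274 and 304 CPM per kb. Within complex III the members lay closest together, between 229 for Uqcrc2 and 404 for Uqcrh. In complex IV the highest was Cox6a2, the muscle form of subunit 6a, at 695 CPM per kb, and in complex V Atp5b was followed by Atp5a1, the alpha subunit, at 816.

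**Figure D1:**
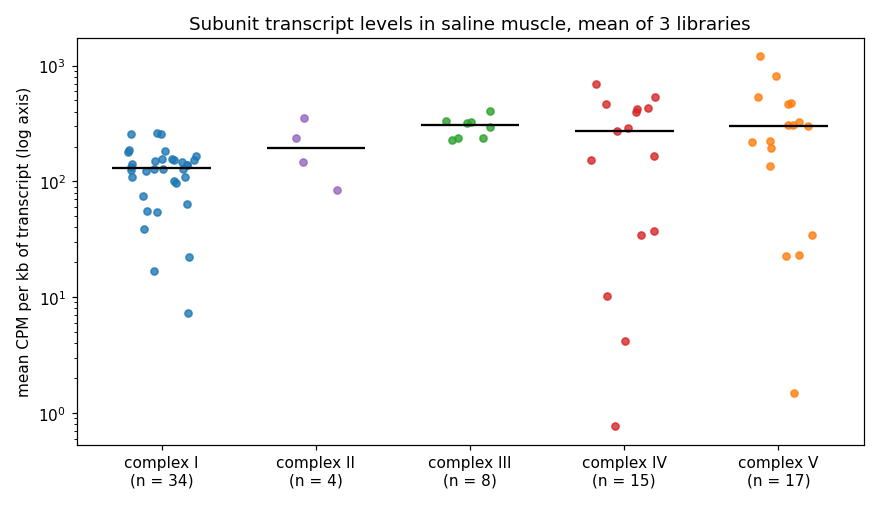
Mean level of each tested subunit gene in the 3 saline libraries, in CPM per kb of transcript on a log axis, by complex (points, genes; line, median). Complex I sits lowest with a median of 131, and Atp5b is the highest gene at 1203.

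For AAV-GFP against saline the fitted values of nearly every subunit were slightly negative, but the shift was greatest in 1 library and no member passed the test. The summed level of the 81 members was 16690, 17559 and 17943 CPM in saline, 15385, 12119 and 17209 CPM in AAV-GFP and 16337, 19925 and 18021 CPM in AAV-GFP-MBNL1∆. AAV-GFP 2 was the lowest of the 9 libraries and AAV-GFP-MBNL1∆ 2 the highest, while AAV-GFP 3 lay inside the saline range. In bulk muscle, fewer fibres in the sample and less RNA per fibre cannot be told apart, and the fibre markers moved the same way: as log2 differences from the saline mean, their median was −0.21, −0.78 and −0.01 in AAV-GFP 1, 2 and 3.

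Gene by gene the libraries kept this order. Of the 81 members, 71 had their lowest level of all 9 libraries in AAV-GFP 2 and 57 their highest in AAV-GFP-MBNL1∆ 2. Within AAV-GFP, 76 were lowest in library 2 and 75 highest in library 3. In the AAV-GFP-MBNL1∆ group 76 were lowest in library 1 and 75 highest in library 2. The median coefficient of variation over the 79 members with a mean of at least 1 CPM was 4.69% in saline, 18.4% in AAV-GFP and 11.3% in AAV-GFP-MBNL1∆. As log2 differences from the saline mean, the member medians of libraries 1, 2 and 3 were −0.05, −0.02 and 0.06 for saline, −0.17, −0.46 and 0.07 for AAV-GFP, then −0.11, 0.21 and 0.03 for AAV-GFP-MBNL1∆.

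**Figure D2:**
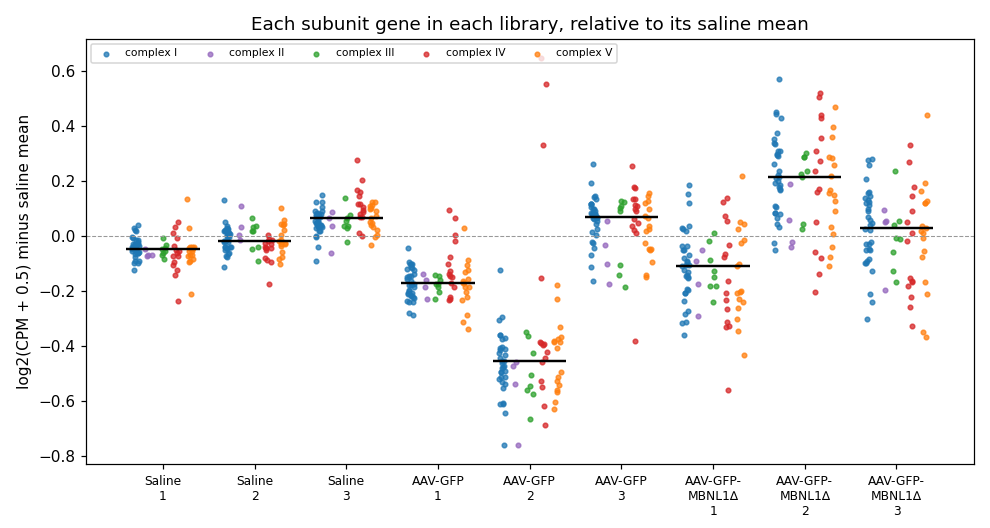
Log2(CPM + 0.5) of each subunit gene of complexes I to V in each of the 9 libraries, minus its mean in saline (points, genes, coloured by complex; black line, median of all members). The cloud of AAV-GFP 2 centres on −0.46 with 3 complex IV genes above 0, and that of AAV-GFP-MBNL1∆ 2 centres on 0.21.

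In AAV-GFP 1, AAV-GFP 2 and AAV-GFP-MBNL1∆ 1 the medians of all 5 complexes lay below the saline mean. In AAV-GFP 2 the median difference from saline was −0.47 for complex I, −0.51 for complex II, −0.53 for complex III, −0.40 for complex IV and −0.41 for complex V. In AAV-GFP-MBNL1∆ 2 the same medians were 0.21, 0.02, 0.23, 0.23 and 0.16, with complex II, of 4 genes, lowest. In AAV-GFP 3 complex II was at −0.07 and the others at 0.02 to 0.10. In AAV-GFP-MBNL1∆ 3 the 5 ranged from −0.02 to 0.05, with complex II highest, so its rank differed between libraries. The 13 mitochondrially encoded subunits had medians of −0.28, −0.95 and 0.00 in AAV-GFP 1, 2 and 3, and of 0.08, 0.08 and 0.01 in AAV-GFP-MBNL1∆. In AAV-GFP-MBNL1∆ 2 the nuclear subunits of complexes I, III, IV and V were raised more than the mitochondrial ones, by values that have no test.

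For AAV-GFP against saline, edgeR called 0 members higher and 0 lower at an adjusted p under 0.05, and the same test called 0% of the 18514 genes in either direction. At an unadjusted p under 0.05, 0 members were higher against 15.6% of all genes, and 1, Sdha, was lower (1.23% against 6.35%). DESeq2 and limma-voom also called 0 members, where DESeq2 called 8.8% of all genes higher and 0.492% lower. limma-voom with a weight for each library called 7 lower, 8.64% against 12.9% of all genes. The fitted log2 fold change was negative for 78 members and positive for 3 (Cox6a1, Cox8a and Ndufs5), with a median of −0.17 against −0.01 over all genes tested. That median was −0.07 without AAV-GFP 2 and −0.30 without AAV-GFP 3. All 3 AAV-GFP libraries lay below all 3 saline libraries for 12 members, 14.8% of those tested against 12.4% of all genes, and above them for 0 members against 14.7% of all genes.

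The 12 members with all AAV-GFP libraries below saline, 14.8% against 12.4% of all genes, were a share near the background. Of them 0 were called, so Sdha, Ndufs1, Atp5b and Atp5a1, which are among them, are given as descriptions only. The same AAV-GFP library was the lowest for each of these genes. Sdha, the flavoprotein that oxidises succinate, was at 667, 743 and 661 CPM in saline, 588, 407 and 610 in AAV-GFP and 666, 717 and 736 in AAV-GFP-MBNL1∆. All AAV-GFP libraries were below the others, with a log2 fold change of −0.37 against saline (SE 0.16, adjusted p = 0.226). Ndufs1, the largest subunit of complex I and carrier of several iron-sulfur clusters, was at 387, 435 and 373 CPM in saline, 341, 235 and 355 in AAV-GFP and 347, 422 and 384 in AAV-GFP-MBNL1∆. Its AAV-GFP values lay below saline, and its AAV-GFP-MBNL1∆ values overlapped both groups. Atp5b was at 2197, 2376 and 2341 CPM in saline, 1998, 1561 and 2159 in AAV-GFP and 2136, 2513 and 2349 in AAV-GFP-MBNL1∆. Atp5a1 followed it at 1886, 2079 and 2086, then 1792, 1396 and 1815, then 1995, 2264 and 2192 CPM. For both ATP synthase genes the log2 fold change of AAV-GFP against saline was −0.27, with adjusted p of 0.308 and 0.283.

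By role, the median for AAV-GFP against saline was −0.27 over the 6 nuclear core subunits of complex I and −0.16 over its 28 supernumerary subunits. It was −0.30 over the 3 large members of complex III (Uqcrc1, Uqcrc2 and the Rieske protein gene Uqcrfs1) and −0.14 over its 5 small ones. In complex V it was −0.24 over the 5 subunits of the catalytic head and central stalk and −0.17 over the 4 of the peripheral stalk. Across the 81 members Spearman's rho between transcript length and the log2 fold change was −0.49, and between level and log2 fold change −0.45. These are descriptions across genes that share 9 libraries. By length, the median in AAV-GFP 3 was 0.11 over the 38 members under 700 bases, 0.06 over the 30 from 700 to under 1500 bases and −0.09 over the 13 of 1500 bases or more. In AAV-GFP 2 the same medians were −0.41, −0.46 and −0.56. The parts of length, level and role were not tested.

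In AAV-GFP-MBNL1∆ muscle the subunits as a whole had values near those of saline, and none of the 81 passed the test. edgeR called 0 members higher against 4.76% of all genes, and 0 lower against 4.6% of all genes. At an unadjusted p under 0.05, 3 members were higher (Ndufs4, Atp5d and Cox7a2l; 3.7% against 13.1% of all genes) and 0 lower against 12.9%. DESeq2 called 1 higher (Atp5d), 1.23% against 8.64% of all genes, and 0 lower against 6.96%, and limma-voom called 0 and 0. The log2 fold change ran from −0.42 for the second identifier of Atp5o to 0.38 for Atp5d. That identifier was scarce, at 1.48 CPM per kb in saline, and 89.8% of its 50-base stretches occur under other identifiers. Values were positive for 49 members and negative for 32, with a median of 0.03 against 0.02 over all genes. With each of the 9 libraries left out in turn, that median ran from −0.05 without AAV-GFP-MBNL1∆ 2, the one negative value, to 0.11 without AAV-GFP-MBNL1∆ 1. The AAV-GFP-MBNL1∆ libraries lay above saline without overlap for 8 members, 9.88% against 22.7% of all genes, and below for 4 members, 4.94% against 20% of all genes. Both shares were under those of all genes.

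In complex I the log2 fold change against saline was 0.16 for Ndufs3 (SE 0.12, adjusted p = 0.453) and −0.05 for Ndufs1 (SE 0.17, adjusted p = 0.883). The median over the 6 nuclear core subunits was 0.01, and over the 28 supernumerary ones 0.06. The libraries of AAV-GFP-MBNL1∆ lay above all 6 others for 8 members, 9.88% against 12.3% of all genes, and below all 6 for 0 against 10.6%. The 8 were Ndufa8, Ndufb10, Ndufs4 and Ndufv2 of complex I, Cox7a2 of complex IV, Atp5c1 and Atp5d of complex V, and Cox7a2l, a protein that joins complexes III and IV into supercomplexes. Cox7a2l was at 60.8, 63.4 and 64.1 CPM in saline, 58.3, 55.3 and 66.7 in AAV-GFP and 67.8, 77.8 and 74.5 in AAV-GFP-MBNL1∆ (adjusted p = 0.161 against saline). Ndufa8, a supernumerary subunit, was at 133, 140 and 152 CPM in saline, 129, 104 and 154 in AAV-GFP and 157, 193 and 172 in AAV-GFP-MBNL1∆ (0.29 against saline, SE 0.15, adjusted p = 0.248).

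Set against AAV-GFP, most subunits were higher in AAV-GFP-MBNL1∆ muscle by a small amount, 5 of them past the test, and Cox6a1 was called lower. The 5 were 6.17% of the members tested, against 10.8% of all genes called higher, and the 1 lower was 1.23% against 10.3% of all genes. At an unadjusted p under 0.05, 23 members were higher, 28.4% against 17.6% of all genes, and 2 lower (Cox6a1 and Cox8a), 2.47% against 22.7%. The log2 fold change was positive for 69 members and negative for 12, with a median of 0.23 against −0.06 over all genes. The libraries did not overlap and were higher in AAV-GFP-MBNL1∆ for 17 members, 21% against 19.2% of all genes, and lower for 2, 2.47% against 19.2%. This comparison uses the same AAV-GFP libraries as the one with saline, and its median was 0.11 without AAV-GFP 2, 0.35 without AAV-GFP 3 and 0.15 without AAV-GFP-MBNL1∆ 2. The count of higher members was 5 without AAV-GFP 2, 6.17% against 10.9% of all genes in that refit, and 20 without AAV-GFP 3, 24.7% against 12.5%. It was 1 (1.23%) without saline 1, saline 2 or AAV-GFP 1, against 7%, 6.61% and 5.39% of all genes. It was 2 (2.47%) without saline 3 or AAV-GFP-MBNL1∆ 1, against 7.92% and 5.28% of all genes. Without AAV-GFP-MBNL1∆ 2 or 3 it was 0, against 6.02% and 2.93% of all genes. DESeq2 called 17 higher, 21% against 14.4% of all genes, and 1 lower, 1.23% against 16.2%.

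Markers of several cell types moved in the same comparison. Of the 14 fibre markers, 2 were called higher (14.3% against 10.8% of all genes) and 0 lower (against 10.3%), with a median of 0.42. The 2 were Acta1 of the thin filament (0.76, adjusted p = 0.0319) and Tnni2, a fast troponin (0.64, adjusted p = 0.0439). Values were positive for 9 of the 14 and negative for 5, Myh1 (−0.27), Myh2 (−0.15), Myh7 (−0.52), Tnnt1 (−0.76) and Atp2a2 (−0.20). Of 4 adipocyte markers tested, 3 were lower (Adipoq, Plin1 and Lep), 75% against 10.3% of all genes, with a median of −2.29. The 5 in the list summed to 18.7 to 65.2 CPM in saline, 36.0 to 43.9 in AAV-GFP and 3.13 to 17.1 in AAV-GFP-MBNL1∆. Ucp1 was at 0 in saline and in AAV-GFP-MBNL1∆. Of 4 red blood cell markers tested, 2 were higher (Hba-a1 and Alas2), 50% against 10.8% of all genes, with a median of 0.45. The 6 macrophage markers had a median of −2.04 and no call. Of them 4 were lower at an unadjusted p under 0.05 by edgeR, 66.7% against 22.7% of all genes. The 8 T cell markers had no call and 6 lower at that level (75%). Of 5 fibroblast markers 2 were called lower (40% against 10.3%), and of 3 satellite cell markers 1 was called higher (33.3% against 10.8%). The endothelial, smooth muscle, and B and plasma cell markers had no call. The part of these cells in the values of the subunits was not tested.

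**Figure D3:**
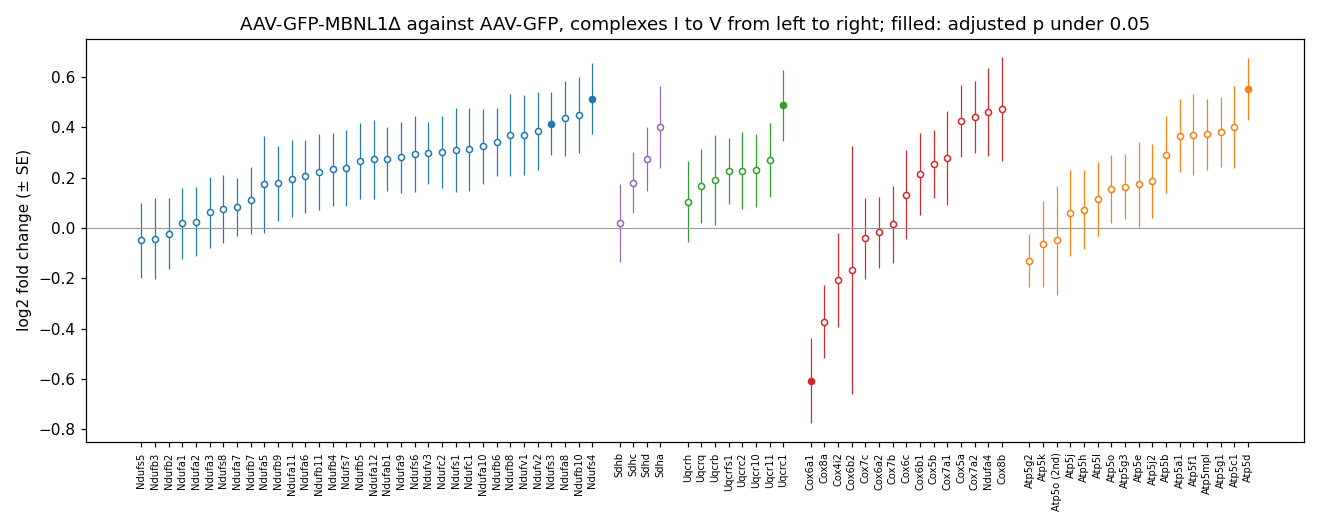
Log2 fold change of AAV-GFP-MBNL1∆ against AAV-GFP for each tested subunit gene, ordered within complexes I to V (bars, SE; filled points, adjusted p under 0.05). Most points lie above 0, Atp5d is highest at 0.55 and Cox6a1 lowest at −0.61.

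Complex I had 2 called members, Ndufs3 (chromosome 2, 90894634 to 90904827) and Ndufs4 (chromosome 13, 114287795 to 114388258, both on the minus strand of mm10). Ndufs4, a supernumerary subunit needed for a stable complex, was at 123, 127 and 130 CPM in saline, 113, 95.4 and 133 in AAV-GFP and 144, 188 and 154 in AAV-GFP-MBNL1∆. Its AAV-GFP-MBNL1∆ libraries were above the other 6, and it rose by 0.51 on the log2 scale against AAV-GFP (SE 0.14, adjusted p = 0.0370). Ndufs3, a core subunit of the peripheral arm, was at 148, 149 and 142 CPM in saline, 131, 102 and 135 in AAV-GFP and 148, 180 and 163 in AAV-GFP-MBNL1∆. It rose by 0.41 against AAV-GFP (SE 0.12, adjusted p = 0.0459) while AAV-GFP-MBNL1∆ 1 lay inside the saline range, and 39.7% of its 50-base stretches also occur in other genes. In complex III, Uqcrc1 (chromosome 9, 108936633 to 108949623), a large subunit on the matrix side, was at 464, 497 and 514 CPM in saline, 432, 329 and 432 in AAV-GFP and 495, 600 and 578 in AAV-GFP-MBNL1∆. It rose by 0.49 against AAV-GFP (SE 0.14, adjusted p = 0.0416), with AAV-GFP-MBNL1∆ 1 again among the saline values. The calls of Ndufs3, Ndufs4 and Uqcrc1 were kept without AAV-GFP 2 or AAV-GFP 3 and ended without any of the other 7 libraries, with adjusted p from 0.0119 to 0.136 over the 3 genes.

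In complex V the delta subunit of the central stalk, encoded by Atp5d (chromosome 10, 80138632 to 80145818), was at 196, 192 and 221 CPM in saline, 188, 156 and 196 in AAV-GFP and 235, 281 and 275 in AAV-GFP-MBNL1∆. All 3 AAV-GFP-MBNL1∆ libraries were above the other 6. The rise against AAV-GFP was 0.55 (SE 0.12, adjusted p = 0.0198), and it ended as a call without AAV-GFP-MBNL1∆ 2 or 3 (adjusted p up to 0.0844). Against saline the value was 0.38 (SE 0.12, adjusted p = 0.0897). The 5 subunits of the head and central stalk had values from 0.17 to 0.55 against AAV-GFP, Atp5d the highest, with a median of 0.37. Atp5s, also named Dmac2l and called factor B of ATP synthase (chromosome 12, 69724950 to 69744660), was scarce. It was at 13.2, 12.1 and 12 CPM in saline, 11.4, 9.83 and 11.4 in AAV-GFP and 12.9, 15.2 and 14.2 in AAV-GFP-MBNL1∆. It rose by 0.38 against AAV-GFP (SE 0.10, adjusted p = 0.0312), and the call held in 4 of 9 refits, ending without saline 1 or 2, AAV-GFP 1, or AAV-GFP-MBNL1∆ 2 or 3.

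**Figure D4:**
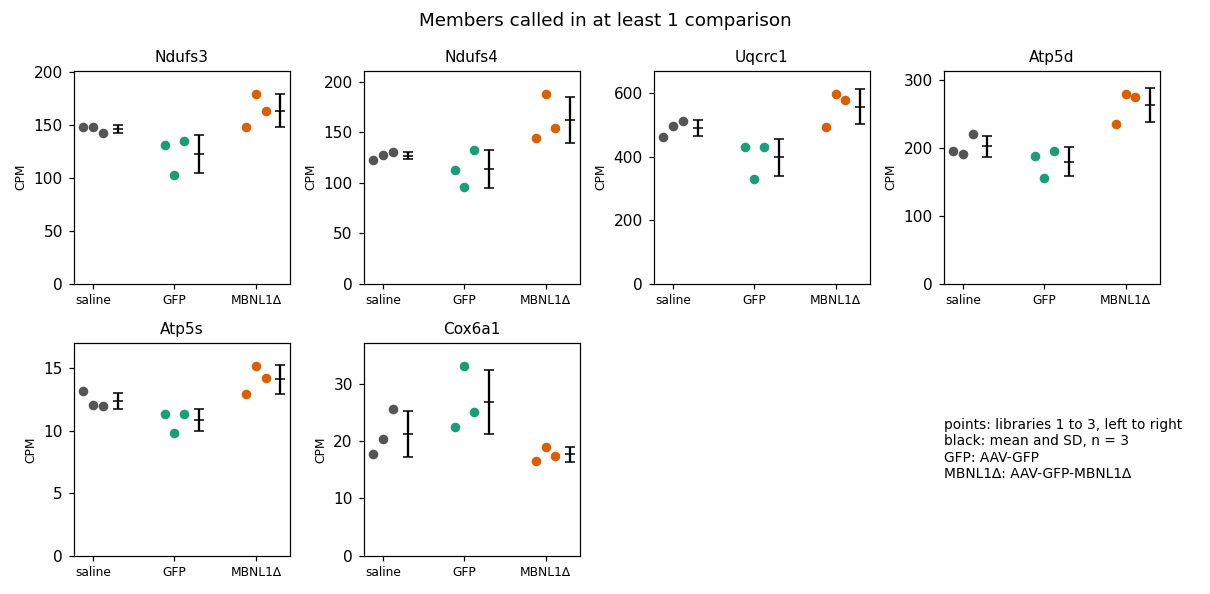
CPM of the 6 members called in a comparison, in each library of saline, AAV-GFP and AAV-GFP-MBNL1∆ muscle (points, libraries 1 to 3; bar, mean and SD, n = 3). Atp5d is separated from both other groups at 235 to 281 CPM, and Cox6a1 is the one of the 6 called lower than in AAV-GFP.

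All members of complexes II and III had positive values against AAV-GFP, as did 14 of 17 in complex V, with no further call. Sdhb, the iron-sulfur subunit of complex II, was at 384, 400 and 430 CPM in saline, 362, 278 and 420 in AAV-GFP and 330, 393 and 353 in AAV-GFP-MBNL1∆. Its groups overlapped throughout. Sdhc and Sdhd, the membrane anchors, had log2 fold changes of 0.18 and 0.27 against AAV-GFP (adjusted p = 0.294 and 0.144), and Sdha had 0.40 (SE 0.16, adjusted p = 0.099). Uqcrh, the hinge protein of complex III, was at 213, 224 and 227 CPM in saline, 200, 164 and 238 in AAV-GFP and 187, 259 and 202 in AAV-GFP-MBNL1∆, with no order between the groups. Uqcr10, Uqcr11 and Uqcrfs1 had values of 0.23, 0.27 and 0.23 against AAV-GFP (adjusted p = 0.262, 0.197 and 0.225). Ndufb10 of complex I was at 184, 189 and 203 CPM in saline, 177, 136 and 200 in AAV-GFP and 208, 262 and 229 in AAV-GFP-MBNL1∆ (0.45 against AAV-GFP, adjusted p = 0.0618). Ndufa4l2, a relative of Ndufa4 known as a target of hypoxia signalling, was at 5.33 to 5.85, 4.15 to 5.38 and 5.70 to 6.57 CPM in the 3 groups (0.37 against AAV-GFP, adjusted p = 0.0636).

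Complex IV differed from the others in the spread of its members. Against AAV-GFP, 9 of its 15 tested members had a positive log2 fold change and 6 a negative one, with a median of 0.13, while the negative ones numbered 3 of 34 in complex I, 0 of 4 in complex II, 0 of 8 in complex III and 3 of 17 in complex V. Of the negative ones, 2 had an unadjusted p under 0.05 by edgeR, Cox6a1 and Cox8a, the widely expressed forms of subunits 6a and 8. Cox7a2, also a widely expressed form, had a positive value. Cox6a1 (chromosome 5, 115345642 to 115348981) was at 17.7, 20.4 and 25.5 CPM in saline, 22.4, 33.1 and 25.1 in AAV-GFP and 16.6, 19.0 and 17.5 in AAV-GFP-MBNL1∆. AAV-GFP 2, the lowest library for most members, was the highest for this gene. It fell by 0.61 in AAV-GFP-MBNL1∆ against AAV-GFP (SE 0.17, adjusted p = 0.0388). The call ended without saline 2, AAV-GFP 2 or any AAV-GFP-MBNL1∆ library, with adjusted p from 0.0237 to 0.125, and 12.3% of its 50-base stretches occur in another gene. Cox8a was at 17.2, 17.7 and 21.7 CPM in saline, 19.6, 27.8 and 21.3 in AAV-GFP and 16.2, 18.0 and 18.9 in AAV-GFP-MBNL1∆, and it too was highest in AAV-GFP 2 (−0.37 against AAV-GFP, SE 0.15, adjusted p = 0.0928). The macrophage and T cell markers were also highest in AAV-GFP 2, and their part in the levels of Cox6a1 and Cox8a was not tested.

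The muscle partners of these genes went the other way in AAV-GFP 2. Cox8b was at 137, 133 and 157 CPM in saline, 126, 88.0 and 160 in AAV-GFP and 155, 204 and 161 in AAV-GFP-MBNL1∆ (0.47 against AAV-GFP, SE 0.21, adjusted p = 0.121). Cox6a2 was at 489, 456 and 472 CPM in saline, 432, 343 and 488 in AAV-GFP and 380, 447 and 421 in AAV-GFP-MBNL1∆. It was lower than saline in every AAV-GFP-MBNL1∆ library (−0.18, SE 0.14, adjusted p = 0.460). As ratios of counts per base within a library, Cox8b exceeded Cox8a by 3.60, 3.52 and 3.47 on the log2 scale in saline, 3.29, 2.27 and 3.52 in AAV-GFP and 3.87, 4.11 and 3.70 in AAV-GFP-MBNL1∆. The AAV-GFP-MBNL1∆ libraries had the 3 highest ratios of the 9, and AAV-GFP 2 had the lowest. Cox6a2 exceeded Cox6a1 by 4.24 ± 0.29 in saline, 3.72 ± 0.52 in AAV-GFP and 4.30 ± 0.03 in AAV-GFP-MBNL1∆ (SD, n = 3), and there AAV-GFP-MBNL1∆ lay inside the saline range.

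For subunit 7a the muscle form was again the higher one per base, in all 9 libraries, but the ratio was lowest in AAV-GFP-MBNL1∆. The muscle form Cox7a1 was at 97.4, 105 and 121 CPM in saline, 91.9, 74.3 and 118 in AAV-GFP and 95.9, 137 and 111 in AAV-GFP-MBNL1∆, with overlap between all groups. The widely expressed form Cox7a2 was at 107, 106 and 116 CPM in saline, 99.4, 83.2 and 118 in AAV-GFP and 120, 156 and 132 in AAV-GFP-MBNL1∆, where all 3 libraries were above the other 6 (0.44 against AAV-GFP, SE 0.14, adjusted p = 0.0558). The log2 ratio of Cox7a1 to Cox7a2 was 0.72 ± 0.10 in saline, 0.65 ± 0.08 in AAV-GFP and 0.49 ± 0.08 in AAV-GFP-MBNL1∆ (SD, n = 3), and the 3 lowest of the 9 were those of AAV-GFP-MBNL1∆. Cox4i2, the form of subunit 4 found mainly in lung, was low at 2.85 to 3.29, 2.22 to 3.08 and 1.91 to 2.7 CPM, and Cox4i1 gave no value to set beside it. Cox5a, a subunit with a single gene, was at 284, 290 and 324 CPM in saline, 283, 228 and 303 in AAV-GFP and 314, 402 and 376 in AAV-GFP-MBNL1∆ (0.42 against AAV-GFP, adjusted p = 0.0617). Cox6c, abundant per kb at 538 in saline, was at 253, 267 and 291, then 231, 184 and 292, then 230, 304 and 241 CPM.

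The c ring of ATP synthase is built from 1 protein that 3 genes encode with different import signals. Atp5g3 had the highest level of the 3 as counted, at 359, 376 and 407 CPM in saline, 341, 291 and 367 in AAV-GFP and 329, 405 and 385 in AAV-GFP-MBNL1∆. Atp5g1 was at 77.6, 82.7 and 84.3, then 74.4, 54.9 and 78.7, then 80.1, 99.4 and 91.4 CPM, and 66.0% of its 50-base stretches occur in other genes, so the order of the 3 genes and the ratios to Atp5g1 are uncertain. Atp5g2 was at 10.4, 9.72 and 10.4, then 10.4, 8.59 and 9.96, then 8.14, 9.58 and 8.70 CPM, and all of its transcript sequence also occurs in other annotated genes. The log2 ratio of Atp5g3 to Atp5g1, per base, was 1.96 ± 0.04 in saline, 2.01 ± 0.11 in AAV-GFP and 1.79 ± 0.02 in AAV-GFP-MBNL1∆. That of Atp5g2 to Atp5g1 was −2.57 ± 0.09, −2.40 ± 0.15 and −2.92 ± 0.05 (SD, n = 3). For both ratios the 3 AAV-GFP-MBNL1∆ libraries were the lowest of the 9. An exact permutation test of 3 against 3 libraries cannot go below p = 0.1, so the ratios are given as descriptions.

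**Figure D5:**
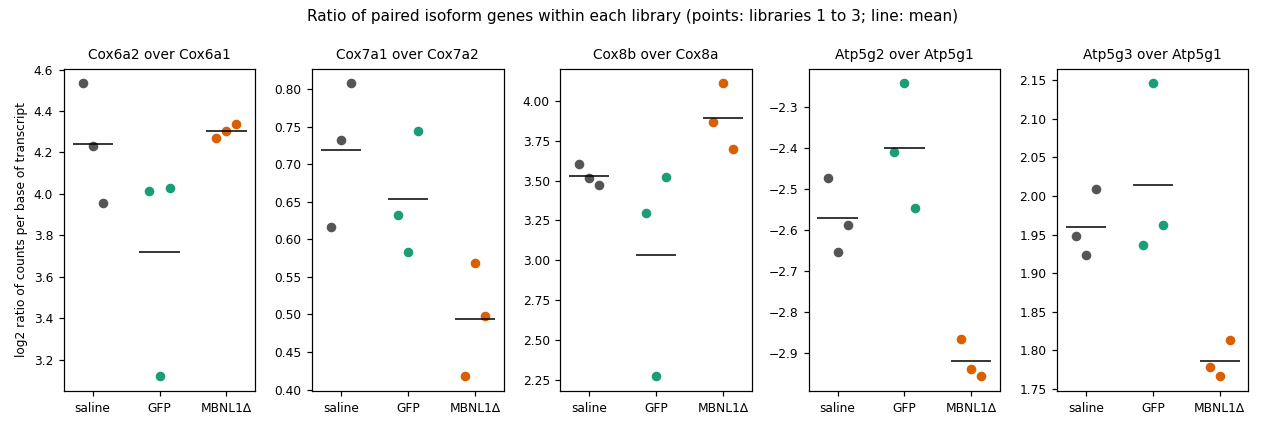
Log2 ratio of counts per base between paired isoform genes in each library of saline, AAV-GFP and AAV-GFP-MBNL1∆ muscle (points, libraries 1 to 3; line, group mean; each panel has its own axis). The AAV-GFP-MBNL1∆ libraries have the 3 highest ratios of Cox8b to Cox8a and the 3 lowest of Cox7a1 to Cox7a2 and of both Atp5g pairs.

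Cox6a1 and Cox8a were above saline in AAV-GFP 2, and Cox8b was below it. The windows before the transcription start are therefore shown for Cox6a1, the one member called lower against AAV-GFP, and both forms of subunit 8. They are the 250 bases before the RefSeq start, 5′ to 3′ on the gene's strand (GRCm38.p6), with motif matches in capitals. Cox6a1 lies at chr5:115348959-115349208, Cox8a at chr19:7217617-7217866 and Cox8b at chr7:140900447-140900696, all on the minus strand. The Cox6a1 window holds 62.8% G and C and 26 CpG pairs, that of Cox8a 52.8% and 11, and that of Cox8b 47.2% and 1, beside medians of 56% and 14 over 67 members and 52% and 6 over 27025 genes.
Cox6a1: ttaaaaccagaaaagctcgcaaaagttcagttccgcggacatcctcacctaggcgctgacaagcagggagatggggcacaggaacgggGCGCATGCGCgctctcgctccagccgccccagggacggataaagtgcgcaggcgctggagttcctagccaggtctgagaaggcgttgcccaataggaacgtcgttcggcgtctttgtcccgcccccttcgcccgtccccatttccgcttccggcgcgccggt
Cox8a: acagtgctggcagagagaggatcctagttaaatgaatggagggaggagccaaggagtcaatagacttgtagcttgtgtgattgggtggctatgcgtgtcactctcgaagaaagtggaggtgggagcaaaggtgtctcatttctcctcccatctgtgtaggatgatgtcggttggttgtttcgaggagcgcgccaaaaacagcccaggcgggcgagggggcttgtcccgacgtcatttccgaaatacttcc
Cox8b: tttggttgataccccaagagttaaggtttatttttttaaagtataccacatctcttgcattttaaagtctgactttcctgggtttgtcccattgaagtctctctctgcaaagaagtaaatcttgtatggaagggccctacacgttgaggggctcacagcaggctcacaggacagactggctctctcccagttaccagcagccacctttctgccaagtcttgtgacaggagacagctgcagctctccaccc

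The capitals in Cox6a1 mark the letters GCATGCGC, used for NRF1, a factor known for activating respiratory genes. They match on both strands in overlapping positions, at 160 to 153 and 162 to 155 bases before the start. In windows that also take in 50 bases after the start, searched on both strands, GCATGCGC occurred in 10 of 67 members (14.9%) against 3.05% of 27025 genes. The letters AAGATGGC (YY1) occurred in 9 members (13.4% against 3.19%), CCGGAAGT (ETS family) in 5 (7.46% against 4.31%) and TCAAGGTCA (oestrogen-related receptors) in 2 (2.99% against 0.466%). Among the called members, Uqcrc1 held the NRF1 letters, Ndufs3 the ETS letters and Ndufs4 the YY1 letters. Cox8a held the ETS letters at a position not wholly within the bases shown. Letters alone do not show binding.

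Assembly factors help to build the complexes and are not part of them. Of 50 such genes 47 were tested, with 0 called for AAV-GFP against saline. For AAV-GFP-MBNL1∆ against saline 2 were higher, 4.26% against 4.76% of all genes, a share near the background, and against AAV-GFP 12 were higher, 25.5% against 10.8%. None of the 47 was lower by edgeR in any comparison. At an unadjusted p under 0.05 lower ones numbered 5, 1 and 0 in that order (10.6%, 2.13% and 0%, all genes 6.35%, 12.9% and 22.7%). Higher ones numbered 0, 10 and 22 (0%, 21.3% and 46.8%, all genes 15.6%, 13.1% and 17.6%). Both called against saline were also higher against AAV-GFP. Uqcc3, which helps to build complex III, was at 19.3, 19.3 and 19.5 CPM in saline, 18.3, 16.6 and 19.2 in AAV-GFP and 23.9, 35.5 and 27.5 in AAV-GFP-MBNL1∆ (0.58 against saline, SE 0.13, adjusted p = 0.0314). Coa3, a complex IV factor, was at 29.2, 29.0 and 31.0, then 28.3, 26.1 and 30.3, then 34.2, 41.8 and 40.3 CPM (0.38 against saline, SE 0.09, adjusted p = 0.0380). In both, every AAV-GFP-MBNL1∆ library was above the other 6. Against AAV-GFP the smallest p-values were those of Ttc19, a complex III factor that rose by 0.69 (SE 0.11, adjusted p = 0.00677), Taco1, a translation activator of mitochondrial Cox1 that rose by 0.65 (adjusted p = 0.0106), and Acad9, a complex I factor that rose by 0.48 (adjusted p = 0.0117). The median over the 47 was −0.13, 0.10 and 0.23 in the 3 comparisons.

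The mitochondrially encoded subunits had no call in 13 genes in any comparison. At an unadjusted p under 0.05 edgeR gave 4 higher against AAV-GFP, 30.8% against 17.6% of all genes, and 0 in the other comparisons. The all-gene shares there were 15.6% higher and 6.35% lower for AAV-GFP against saline. They were 13.1% and 12.9% for AAV-GFP-MBNL1∆ against saline. The medians of the 13 genes were −0.37 for AAV-GFP against saline, 0.05 for AAV-GFP-MBNL1∆ against saline and 0.45 against AAV-GFP. The complex I subunit mt-Nd1 was at 20638, 23558 and 22780 CPM in saline, 18231, 11641 and 23280 in AAV-GFP and 26160, 27595 and 27233 in AAV-GFP-MBNL1∆. AAV-GFP 2 was lowest and the AAV-GFP-MBNL1∆ libraries were highest (0.61 against AAV-GFP, SE 0.25, adjusted p = 0.102). Of 14 citrate cycle genes 1 was called (7.14% against 10.8% of all genes), Dlst of the oxoglutarate dehydrogenase complex, which rose by 0.51 against AAV-GFP (SE 0.12, adjusted p = 0.0260). The medians of that list were −0.33, 0.01 and 0.35.

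The list of mobile carriers and nucleotide exchange also holds genes for making coenzyme Q and uncoupling proteins. It gave 7 higher calls of 18 tested against AAV-GFP, 38.9% against 10.8% of all genes. They were Cycs, Coq6, Coq7, Coq9, Pdss2, Slc25a3 and Ucp3. In the other comparisons 0 were called. At an unadjusted p under 0.05 by edgeR, 1 was higher (5.56%, all genes 15.6%) and 3 lower (16.7%, all genes 6.35%) for AAV-GFP against saline. For AAV-GFP-MBNL1∆ against saline 2 were higher (11.1%, all genes 13.1%) and 0 lower (all genes 12.9%). Coq9, needed to make coenzyme Q, was at 221, 238 and 226 CPM in saline, 193, 145 and 197 in AAV-GFP and 251, 298 and 279 in AAV-GFP-MBNL1∆, and rose by 0.63 against AAV-GFP (SE 0.13, adjusted p = 0.0165). Ucp3, an uncoupling protein of muscle, was at 120, 97.4 and 97.8, then 89.7, 57.6 and 104, then 138, 195 and 192 CPM, and rose by 1.06 (SE 0.22, adjusted p = 0.0167). For both genes the AAV-GFP-MBNL1∆ libraries exceeded all 6 others. Cycs, the gene of cytochrome c, rose by 0.48 (SE 0.13, adjusted p = 0.0355) and Coq6 by 0.36 (SE 0.09, adjusted p = 0.0283). Among 18 regulators of mitochondrial gene expression, 3 were called higher against AAV-GFP, 16.7% against 10.8% of all genes. They were Polrmt, the mitochondrial RNA polymerase (0.48, adjusted p = 0.0123), Tfam, which packages mitochondrial DNA (0.37, adjusted p = 0.0434), and the nuclear receptor gene Esrra (0.49, adjusted p = 0.0438). The median over the 18 was 0.03, with 9 positive and 9 negative.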

How the data were processed

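The deposited values are counts of reads per gene, 1 table for each library. Per the labels' protocols, Trizol RNA was treated with DNase and made into libraries from 250 ng with a KAPA mRNA kit. Per the submitters' processing notes, the authors used cutadapt 2.10, STAR 2.7.5a, HTSeq 0.12.4 and DESeq2 1.30.0 with mm10. The annotation release, strand setting and treatment of multiply mapped reads were not given in the sources used here. The 5 rows that name no gene (16.8% to 18.3% of reads) entered neither library sizes nor tests. Symbols, coordinates and transcript lengths came from GENCODE M21 (GRCm38), matched by identifier without version: 55141 of 55401 matched, all 85 members among them. One gene that the rule finds is not reported here and enters no count of members. The length of a gene was that of 1 principal transcript.

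One edgeR 4.0.16 model (R 4.3.3) covered all 9 libraries, with TMM scaling, edgeR's expression filter, the robust quasi-likelihood F test and 1 mean per group. P-values were adjusted by Benjamini-Hochberg over the 18514 genes tested, with a threshold of 0.05, so every adjusted p is edgeR's unless another tool is named. CPM are on TMM-scaled library sizes, and the biological coefficient of variation was 0.232 with 6 residual degrees of freedom. The standard error is the log2 fold change divided by the square root of F. The procedure was tested on simulated data.

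Members, complexes, gene lists and tests were chosen with earlier results of these data known. The naming rule took every called member where at most 15 were called, and per complex the 2 with the highest level per kb and the 2 with the smallest p-values in each comparison. It also took isoform pairs, members not tested, and from each related list the called genes up to 4 by p-value, or otherwise the 2 with the smallest. Members listed to complete a count fall outside it. Alternatives were DESeq2's size factors, upper-quartile scaling, no filter, 1 CPM in 3 libraries, DESeq2 1.42.0, limma-voom (limma 3.58.1), only the 2 groups compared, a replicate block, a table without mitochondrial genes and the top 10 by abundance, and each library omitted in turn.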

Additional observations from a re-analysis of the deposited data

How the results depend on the processing

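No named member changed the sign of a called value under any alternative that was run. The member median for AAV-GFP against saline, for AAV-GFP-MBNL1∆ against saline and for AAV-GFP-MBNL1∆ against AAV-GFP was −0.17, 0.03 and 0.23 with TMM, and −0.22, −0.0036 and 0.24 with upper-quartile scaling, so that the second changed sign. Counts of called members moved more. For AAV-GFP against saline, limma-voom with library weights, chosen after seeing the data, called 7 lower in place of 0 (8.64% of members, 12.9% of all genes). For AAV-GFP-MBNL1∆ against saline, higher members numbered 0 in the model reported, 1 with DESeq2 (1.23%, all genes 8.64%) and 2 with only the 2 groups compared (2.47%, all genes 12.9%). Library weights called 7 higher (8.64%, all genes 15.4%) and 1 lower (1.23%, all genes 14.1%). When 1 library was left out, higher members numbered 0 to 1, the 1 being without AAV-GFP 2 (1.23%, all genes 10.3%). Against AAV-GFP, the 5 higher became 1 with upper-quartile scaling (all genes 8.92%), 3 with no filter (5.27%), 17 with DESeq2 (14.4%) and 0 with only the 2 groups compared (4.39%). They became 34 with library weights (42% of members, 24% of all genes) and 0 to 20 when 1 library was left out (all genes 2.93% to 12.5%). The 1 lower (Cox6a1) became 0 with only the 2 groups compared (all genes 2.07%) and 2 with library weights (2.47%, all genes 26.2%). It became 0 to 1 when 1 library was left out (all genes 1.42% to 22.4%). Over all genes, DESeq2 called 1629 higher and 91 lower for AAV-GFP against saline, where edgeR called 0, and 2889 were higher and 1176 lower at an unadjusted p under 0.05. The cause of these differences was not tested. With the replicate number as a block, 1 member was called higher and 1 lower against AAV-GFP (1.23% each, all genes 8.29% and 7.03%). The labels do not say that the numbers pair libraries. Over 9 same-numbered pairs, deviations correlated from −0.0667 to 0.511, with 3 above 0.1. Of 18 best correlations, 5 were with the same number. With so few libraries in a group, these values cannot show whether the numbers pair libraries. Each gene's spread was estimated over the groups of a fit together, also where a group had lost a library. The median coefficient of variation of 18.4% between AAV-GFP libraries limits what comparisons with that group can show.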
